A study of Schizosaccharomyces pombe with 6 samples.

Results

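The genes described here lie at the ends of *Schizosaccharomyces pombe* chromosome I. They are the 94 of 6988 counted features whose systematic IDs place them on 10 sequenced clones: SPAC212, SPAC977, SPAPJ695, SPAC1F8, SPAC11D3 and SPAC5H10 at the left end, from the outermost clone inwards, and SPAC750, SPAC186, SPAC869 and SPAC922 at the right end, again from the outermost clone inwards. Membership was set by ID, with no measured value in the rule, and 12 further genes of the same clones were left out by name. The left end holds 64 members and the right end 30, and their order along the chromosome came from the RefSeq annotation of assembly ASM294v3, which pairs 93 of the 94 by ID.

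PolyA+ RNA was sequenced from 3 replicate cultures of a quadruple mutant, *asp1-H397A aps1*∆ *siw14*∆ *spx1*∆, and from 3 of a wild type. The mutant (strain BS1453) carries *asp1-H397A::natMX*, *aps1*∆*::kanMX*, *siw14*∆*::hygMX* and *spx1*∆*::ura4MX*. Its 3 inositol pyrophosphatases, the enzymes that break down inositol pyrophosphate signaling molecules, are inactivated or absent, and it also lacks Spx1. The wild type (strain Sp1) carries none of these alleles. Both are described as h- haploids in vegetative log phase growth at 30°C in ePMGT, an enhanced minimal glutamate medium with thiamine. Each genotype is represented by 1 strain, so a difference between the strains cannot be told apart from other differences between these lineages, the *ura4* marker among them.

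Chromosome ends in fission yeast are held by telomere-binding proteins and, next to the telomere repeats, by heterochromatin that silences genes placed in it. The subtelomeres carry *tlh* genes, which encode RecQ-type helicases, and small families of near-identical genes shared between chromosome ends. Further inwards the chromatin opens into genes for transporters, dehydrogenases, amide and urea metabolism and cell surface proteins, many of them with changeable expression in stress or nutrient shifts.

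The libraries held 20305111 to 22690741 counts in the mutant and 16593476 to 21436751 in wild type, and a normalized count below is a count scaled to the mean effective library size. *aps1* had 307 to 330 counts in the mutant and 3083 to 3657 in wild type, *siw14* had 70 to 107 and 1925 to 2666, and *spx1* had 1915 to 2369 and 4524 to 6452. The row for *spx1*, named *pqr1* in the annotation, therefore kept counts in the mutant, and the deleted part of that gene was not checked. *ura4* had 8309 to 9631 counts in the mutant and 0 in every wild-type library. Of the h- (M cell) markers, *mfm1*, *mfm2* and *mam2* had counts in every library and *mat1-Mc* was at 0 in every library, while the P cell markers *map2* and *map3* also had counts in every library, so the mating type was not settled by these rows. The strain list of the study gives this combination of deletions under a neighbouring strain name and as h+, against the h- of the sample labels. The 3 counted M markers were called lower in the mutant (log2 fold changes of -3.75 for *mfm1*, -2.19 for *mfm2* and -2.01 for *mam2*), with -0.76 for *map2* and -0.02 for *map3*, and their part in the results below was not tested. Wild-type replicates 1 and 3 were the least alike of the same-strain pairs, with a chi-square per degree of freedom of 65.8 against 5.91 to 27.8 in the others.

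Of the 94 members, 62 passed the filter on low counts and were tested. The other 32 had at most 22 counts in any library, and 9 of them were at 0 in every library. A gene was called when edgeR's quasi-likelihood test gave a Benjamini-Hochberg adjusted p of 0.05 or less over all 5947 features tested, the fold change was at least 2 and the mean normalized count reached 100 in the higher strain. Under that rule 8 members were called lower in the mutant (12.9% of those tested, against 1.72% of all features tested) and 1 was called higher (1.61%, against 0.37%). By adjusted p alone, 24 members were lower (38.7%, against 7.03% of all features tested) and 5 were higher (8.06%, against 5.33%). All 3 mutant values lay below all 3 wild-type values in 28 members (45.2%, against 17.3%) and above them in 7 (11.3%, against 16.4%).

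These counts are read with the filter in mind. A member that passed only because it was counted in 1 strain had to differ, and 5 tested members had under 10 counts in every mutant library while 1 had under 10 in every wild-type library. These numbers are a minimum. SPAC212.12 and SPAC750.01 leaned on wild type, and SPAC212.06c on the mutant, because some libraries of the other strain held under 10 counts. Among the 46 tested members whose mean normalized count reached 100 in the mutant or in wild type, 15 were lower (32.6%, against 6.23% of the 5107 features at that level) and 4 higher (8.7%, against 5.89%) at the adjusted p. The median log2 fold change of the 62 tested members was -0.27, with a range of -5.72 to 3.13, while the median over all features tested was 0.002. The median was -0.22 over the 49 tested members of the left end and -1.48 over the 13 of the right end. The difference between the ends was not tested.

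The levels of the members differed far more between clones than between strains. On the RPKM scale, which divides by exon length, the median member of the outermost clones SPAC212 and SPAC750 had 0.154 and 0.00 RPKM in the mutant and 0.0522 and 0.00 RPKM in wild type. The median was 19.5 RPKM in the mutant and 21.5 RPKM in wild type for SPAC5H10, the innermost clone of the left end, and to 25.5 and 30.6 RPKM for SPAC922, the innermost of the right end. Low counts went with duplication: 26 members have a near-identical copy elsewhere in the genome (sequence identity of 95% or more across 50% or more of the gene), each of them with a copy on chromosome II, and 20 of these 26 had too few counts to test. All 9 members at 0 in every library are among the duplicated ones. How reads from identical copies were assigned was not tested, so a duplicated member listed at 0 is not read here as silent.

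**Figure D1:**
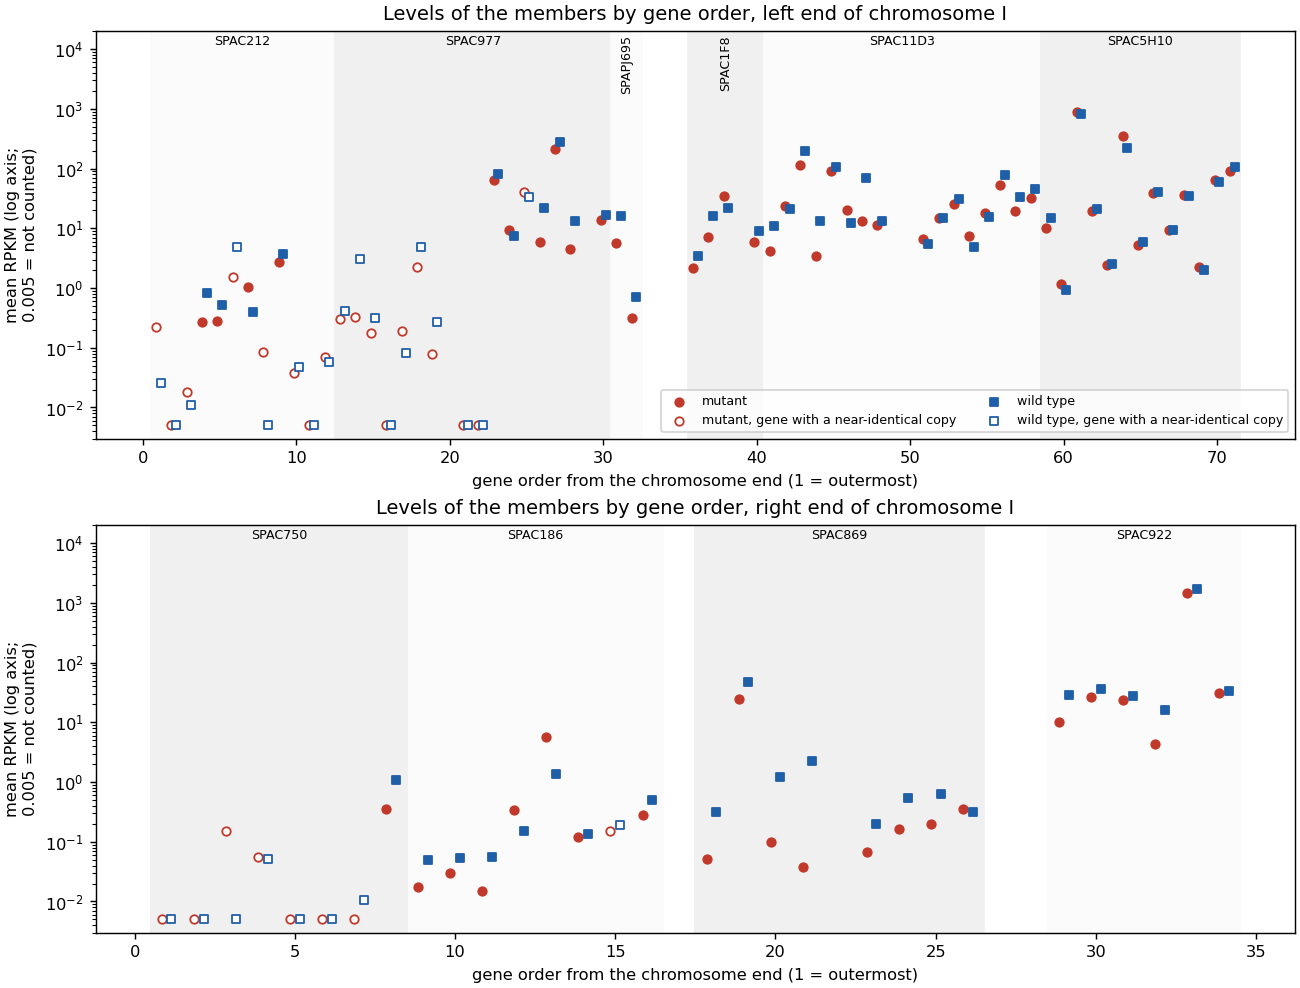
Mean RPKM of each member in the mutant (circles) and in wild type (squares) on a log axis, plotted by gene order from the left (top) and right (bottom) end of chromosome I, with open symbols for genes that have a near-identical copy and 0.005 standing for genes that were not counted. Levels are low in the outermost clones, where most duplicated genes lie, and highest for SPAC922.04 at 1450 RPKM in the mutant and 1710 RPKM in wild type.

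At the outermost left clone, SPAC212, 4 of 12 members could be tested, and *tlh1* was higher in the mutant. *tlh1* (SPAC212.11), the subtelomeric RecQ-type helicase gene and the outermost member, had 31, 24 and 26 counts in the mutant against 7, 1 and 0 in wild type. After normalization these were 28.2, 24.6 and 24.2 in the mutant and 7.98, 0.94 and 0 in wild type, so every mutant library was above every wild-type library, at a level too low to be called. The log2 fold change was 3.13 ± 0.60 (SE; edgeR adjusted p = 0.00641), and without wild-type replicate 1 it was 5.36 (adjusted p = 0.000276). With under 10 counts in every wild-type library, *tlh1* passed the low-count filter through the mutant alone. It therefore had to be higher once tested, and these p-values are no support for the difference. *tlh1* has a near-identical copy, *tlh2* (SPBCPT2R1.08c) on chromosome II, and the 2 cannot be told apart where their sequences match. In the same fit *tlh2* had 250, 190 and 293 counts in the mutant and 57, 24 and 13 in wild type (log2 fold change 2.79 ± 0.38, adjusted p = 0.000755), more than *tlh1* in every library.

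SPAC212.12, which encodes a GPI-anchored protein and also has near-identical copies, went the other way. It had 14.6, 8.18 and 12.11 normalized counts in the mutant and 53.6, 35.7 and 22.1 in wild type (log2 fold change -1.65 ± 0.38, edgeR adjusted p = 0.0158). Its raw counts were 16, 8 and 13 in the mutant and 47, 38 and 20 in wild type. SPAC212.12 thus passed the low-count filter partly on the strength of wild type. Without mutant replicate 2 or 3 its log2 fold change was -1.46 and -1.67, and it no longer passed the adjusted p (0.0576 and 0.059). SPAC212.04c, an uncharacterized gene and the most counted member of the clone, had 86.4, 77.7 and 69.9 normalized counts in the mutant and 122, 133 and 68.4 in wild type, overlapping ranges that did not pass the test (log2 fold change -0.47, adjusted p = 0.245). Without wild-type replicate 3, the low one, its log2 fold change was -0.72 (adjusted p = 0.0042). SPAC212.06c, a DNA helicase-like gene named after its values were seen, was the remaining tested member, with 16, 14 and 28 counts in the mutant and 3, 13 and 5 in wild type. Its mutant libraries lay above its wild-type libraries without passing the test (log2 fold change 1.31, adjusted p = 0.0946). The 8 untested members of SPAC212, among them pseudogenes and uncharacterized genes, had at most 22 counts.

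SPAC977 follows on the left end with 16 members, of which 10 were tested. At the adjusted p, 4 of the 10 were lower (40.0%, against 7.03% of all features tested) and none was higher (against 5.33%). These 4 include SPAC977.18, which passed the low-count filter through wild type alone and had to be lower. The share is therefore not read as a result about the clone. Its outer genes are copies of chromosome II end genes and were barely counted, whereas its inner genes, from the sodium ion and proton antiporter *nhe1* inwards, were well expressed. The 2 called genes sit among these inner genes. SPAC977.13c, a pseudogene, had 100.03, 107 and 95 normalized counts in the mutant and 339.6, 329 and 437 in wild type, with wide space between the strains (log2 fold change -1.87 ± 0.18, edgeR adjusted p = 4.92e-05). SPAC977.15, a dienelactone hydrolase family gene implicated in detoxification, had 80, 79.8 and 93.1 normalized counts in the mutant and 302, 245 and 186.5 in wild type (log2 fold change -1.53 ± 0.20, adjusted p = 0.000623).

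Between these called genes lies SPAC977.14c, an aldo-keto reductase family gene and the most counted member of the clone. Its normalized counts were 5207, 5288 and 5457 in the mutant and 8583, 6896 and 5821 in wild type. The strains did not overlap, yet the gene missed the threshold (log2 fold change -0.42, edgeR adjusted p = 0.0581) and passed it without wild-type replicate 3 (log2 fold change -0.55, adjusted p = 7.67e-05). The neighbours of SPAC977.13c on its outer side did not pass the test: the log2 fold change was 0.37 for *fex1*, the fluoride export channel gene (adjusted p = 0.149), and 0.29 for the L-asparaginase gene SPAC977.12 (adjusted p = 0.168). These outer neighbours were singled out after their values were seen.

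The other members of SPAC977 that passed the test were low-count genes with copies on chromosome II. SPAC977.18, an uncharacterized gene, had 8.18, 2.05 and 1.86 normalized counts in the mutant and 33, 46.9 and 32 in wild type (log2 fold change -3.15 ± 0.45, edgeR adjusted p = 0.000995), and without mutant replicate 1, the highest of the mutant libraries, its log2 fold change was -4.18. SPAC977.18 had under 10 counts in every mutant library. It passed the low-count filter through wild type alone and had to be lower, so its p-value is no support for a fall. SPAC977.05c, which encodes a Vel1p domain protein, had 17.3, 40.9 and 27.9 normalized counts in the mutant and 76.3, 59.1 and 50.8 in wild type (log2 fold change -1.12 ± 0.30, adjusted p = 0.032). The ranges of SPAC977.05c did not overlap. Without wild-type replicate 2, mutant replicate 1 or mutant replicate 3 its log2 fold change was -1.15, -0.85 and -1.10, and it did not pass (adjusted p = 0.0778, 0.123 and 0.113).

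The short clone SPAPJ695 has 2 members, both uncharacterized. SPAPJ695.02 had 172, 183 and 151 normalized counts in the mutant and 587, 541 and 342 in wild type. It was called lower (log2 fold change -1.54 ± 0.21, edgeR adjusted p = 0.000717), with its lowest wild-type library still above every mutant library. SPAPJ695.01c, beside it, had at most 10 counts and was not tested.

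In SPAC1F8, all 4 members were tested, and the clone held genes that moved in both directions. *isp3* (SPAC1F8.05), which encodes a structural protein of the spore wall, had 159, 196 and 163 normalized counts in the mutant and 310.0, 406 and 449 in wild type. It was called lower (log2 fold change -1.17 ± 0.18, edgeR adjusted p = 0.00174). The next gene inwards, *pfl8* (SPAC1F8.06), a cell surface glycoprotein gene of the flocculin family, was higher, with 1169, 1156 and 1168 normalized counts in the mutant and 649.6, 755 and 732 in wild type. Its change was under 2-fold and so not called (log2 fold change 0.71 ± 0.12, adjusted p = 0.00267). The strains did not overlap at either of these adjacent genes.

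SPAC1F8.08, uncharacterized, had 144, 127 and 104 normalized counts in the mutant and 189, 203 and 182 in wild type (log2 fold change -0.61 ± 0.17, edgeR adjusted p = 0.0398). Its groups did not overlap. Without wild-type replicate 2 or any single mutant replicate it did not pass (adjusted p = 0.0617 to 0.219), at log2 fold changes of -0.73 to -0.50. The remaining member, *hhy1*, a hydrolase gene, had a log2 fold change of -0.64 and did not pass (adjusted p = 0.105).

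SPAC11D3, with 17 members, all of them tested, held 3 of the 8 members called lower (17.6% of its members, against 1.72% of all features tested). The member with the smallest adjusted p among those called was SPAC11D3.06, a gene for a MatE family transporter, a class of drug and metabolite exporters. It had 483, 461 and 576 normalized counts in the mutant and 2397, 2753 and 2791 in wild type, a level 5.22-fold lower in the mutant (log2 fold change -2.38 ± 0.12, edgeR adjusted p = 2.76e-07). All exons of SPAC11D3.06 lie under the transcription factor gene *toe4* on the opposite strand. *toe4* itself had 958, 1019 and 921 normalized counts in the mutant and 1260.4, 1213 and 1002 in wild type (log2 fold change -0.26, adjusted p = 0.202). The library kit keeps strand, but the strand setting of the counting step is unknown here. In wild type SPAC11D3.06 had 2103, 2932 and 2530 raw counts, and *toe4* had 1106, 1292 and 908. The overlap was read from ASM294v3, not from the annotation used for counting. How reads of the 2 genes were assigned was not tested.

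SPAC11D3.03c, a gene with no name in the annotation, had 80, 67.5 and 79.2 normalized counts in the mutant and 311, 336 and 219.6 in wild type (log2 fold change -1.93 ± 0.20, edgeR adjusted p = 0.000107). SPAC11D3.19, the outermost gene of the clone and uncharacterized, had 121, 131 and 117 normalized counts in the mutant and 274, 324 and 346 in wild type (log2 fold change -1.35 ± 0.16, adjusted p = 0.000314). Both were called, and in both the highest mutant library lay well under the lowest wild-type library. Next to SPAC11D3.03c, SPAC11D3.02c, an acetyltransferase gene and the most counted member of the clone, had 1535, 1589 and 1658 normalized counts in the mutant and 3481, 2744 and 2022 in wild type (log2 fold change -0.79 ± 0.16, adjusted p = 0.00853). All exons of SPAC11D3.02c and SPAC11D3.03c lie under the noncoding RNA SPNCRNA.608 on the opposite strand, which had a log2 fold change of -0.65 ± 0.16.

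Smaller falls were found at the inner side of the clone. SPAC11D3.17, a zinc cluster transcription factor gene, had 834, 1018 and 1085 normalized counts in the mutant and 1464, 1777 and 1705 in wild type (log2 fold change -0.75 ± 0.13, edgeR adjusted p = 0.00325). SPAC11D3.16c, uncharacterized, had 1149, 1298 and 1306 in the mutant and 1643, 1937 and 2006 in wild type (log2 fold change -0.57 ± 0.11, adjusted p = 0.00656). Both were separated between the strains but changed by less than 2-fold.

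The 2 members of SPAC11D3 that rose encode a transporter and an enzyme of glutathione turnover. *mfs2* (SPAC11D3.05), a major facilitator family transporter gene next to SPAC11D3.06, had 708, 843 and 923 normalized counts in the mutant and 475, 483 and 521 in wild type (log2 fold change 0.74 ± 0.14, edgeR adjusted p = 0.00641). Without mutant replicate 3 the log2 fold change of *mfs2* was 0.66 (adjusted p = 0.0604). SPAC11D3.14c, an oxoprolinase gene, had 558, 645 and 617 normalized counts in the mutant and 447, 401 and 349.8 in wild type (log2 fold change 0.60 ± 0.15, adjusted p = 0.0218). Without wild-type replicate 2 or any single mutant replicate it did not pass (adjusted p = 0.055 to 0.138), at log2 fold changes of 0.56 to 0.66. Of its exon bases, 99.7% lie under a noncoding RNA of the opposite strand, SPNCRNA.609, with a log2 fold change of 0.45 ± 0.17. The neighbouring 5-oxoprolinase gene SPAC11D3.15 did not pass (log2 fold change 0.26, adjusted p = 0.209).

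SPAC5H10, the innermost left clone, had no called member among its 13, all of them tested (2 had an unadjusted p under 0.05 by edgeR, and DESeq2 called none of them in either direction). Over all 5947 features tested, 1.72% were called lower, 0.37% were called higher and 1628 had an unadjusted p under 0.05. At the adjusted p, 7.69% of the clone was lower, near the 7.03% of all features tested. With 13 genes, the absence of a call is not read as a result about the clone. The median log2 fold change was -0.02. *dgc1* (SPAC5H10.01), the D-glutamate cyclase gene and the outermost of the clone, was the member past the adjusted p, with 266, 214 and 240.3 normalized counts in the mutant and 369, 350.2 and 356 in wild type (log2 fold change -0.58 ± 0.15, edgeR adjusted p = 0.0292). Without wild-type replicate 2 or any single mutant replicate *dgc1* did not pass (adjusted p = 0.0638 to 0.203), at log2 fold changes of -0.66 to -0.50.

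The most counted member of SPAC5H10 was SPAC5H10.03, of the phosphoglycerate mutase family, with 18647, 18291 and 18414 normalized counts in the mutant and 14569.7, 17437 and 18851 in wild type. These ranges overlapped and the gene did not pass (log2 fold change 0.12, edgeR adjusted p = 0.521). *adh4*, an alcohol dehydrogenase gene named after its values were seen, had 6491, 12629 and 13505 normalized counts in the mutant and 6025, 6989 and 7109.9 in wild type. Mutant replicate 1 lay within the wild-type range and the other mutant libraries lay above it (log2 fold change 0.70, adjusted p = 0.0577). The galactosyltransferase genes of the clone, *gmh1*, *gmh2* and *otg1*, which build the galactose side chains of cell surface glycans, had log2 fold changes of 0.17, -0.19 and 0.15 and did not pass.

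**Figure D2:**
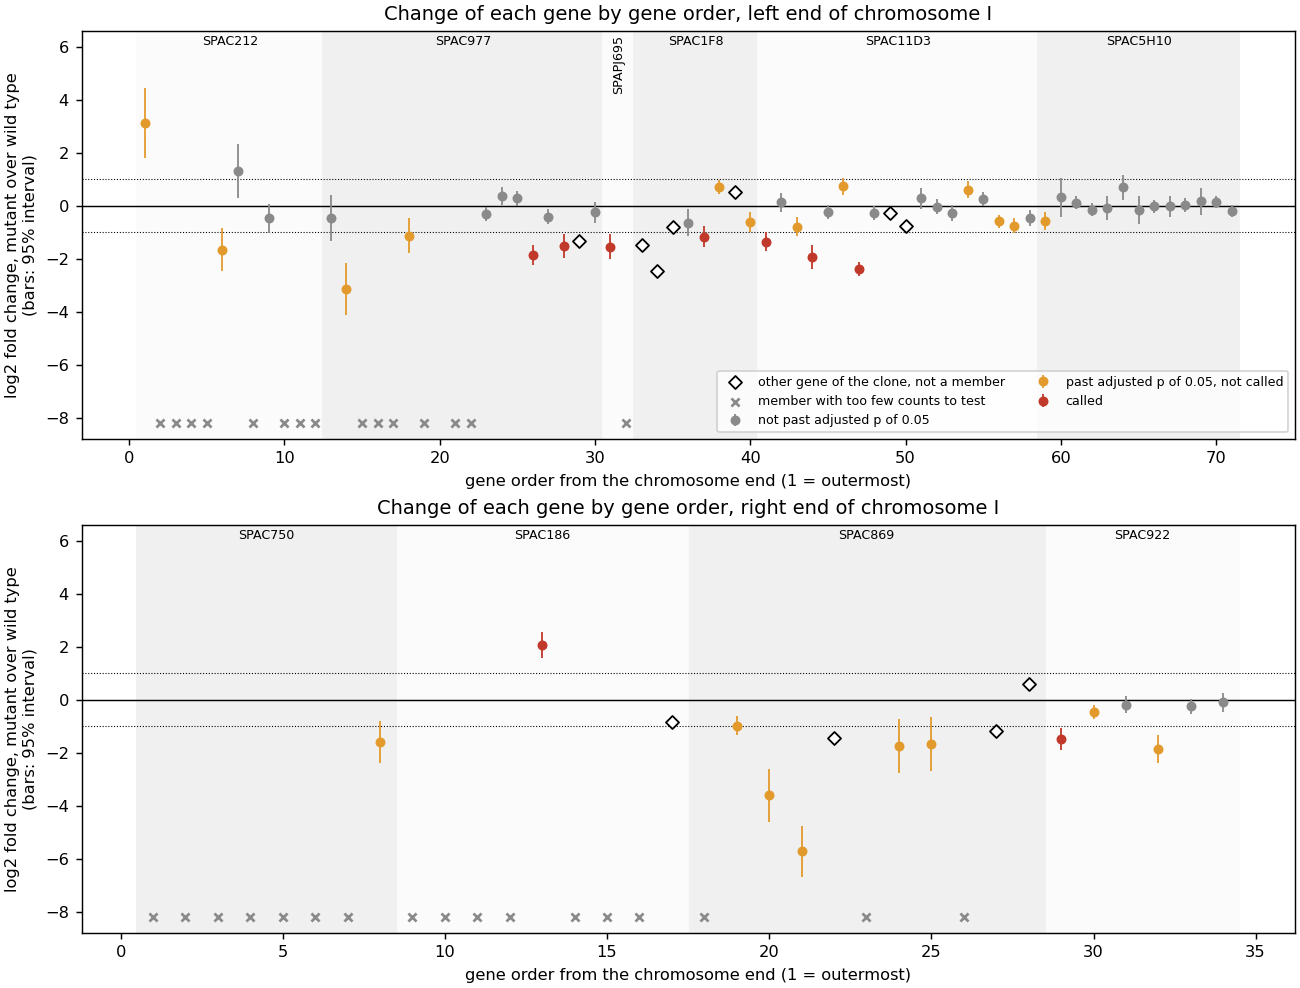
Log2 fold change, mutant over wild type, of each tested gene by gene order from the left (top) and right (bottom) end of chromosome I, with 95% intervals for members and dotted lines at 2-fold. Called members are red, other members past an adjusted p of 0.05 are orange, crosses mark the members with too few counts to test and open diamonds the other genes of the clones; the fall is widest at SPAC869.04 (-5.72), and SPAC5H10 at the far right of the top panel lies near 0 with a median of -0.02.

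At the outermost right clone, SPAC750, 7 of 8 members had at most 5 counts in any library, 4 of them were at 0 throughout, and those 7 have copies. SPAC750.01, an aldo/keto reductase family gene and the innermost of the clone, was the tested member. It had 10.9, 6.14 and 6.52 normalized counts in the mutant and 30.8, 20.6 and 21 in wild type (log2 fold change -1.58 ± 0.36, edgeR adjusted p = 0.0158). Its raw counts were 12, 6 and 7 in the mutant and 27, 22 and 19 in wild type. SPAC750.01 thus passed the low-count filter mainly through wild type, which favours a lower value in the mutant. The strains did not overlap. Without mutant replicate 2 or 3 the log2 fold change was -1.44 and -1.46, and SPAC750.01 did not pass (adjusted p = 0.0669 and 0.0788).

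SPAC186 held the member that was called higher. *gdt1* (SPAC186.05c), which encodes a GDT1-like membrane protein of a family that transports cations, had 179, 129 and 204 normalized counts in the mutant and 36.5, 43.2 and 40.8 in wild type. The log2 fold change was 2.08 ± 0.22 (edgeR adjusted p = 0.000122), with the lowest mutant library far above the highest wild-type library. The 7 other members of this clone, among them genes for dehydrogenases, an L-asparaginase and the pyruvate decarboxylase *pdc102*, had at most 13 counts in any library and were not tested. The immediate neighbours of *gdt1* were thus barely counted: SPAC186.04c had 4, 4 and 0 counts in the mutant and 4, 3 and 1 in wild type, and SPAC186.06 had 7, 6 and 9 in the mutant and 4, 5 and 0 in wild type.

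In SPAC869, 5 of 8 members were tested and each was lower in the mutant at the adjusted p, which 7.03% of all features tested were. All but *yhb1* had under 10 counts in every mutant library, so they passed the filter through wild type alone and had to be lower; their number is no result about the clone. The clone joins genes of nitrogen use with stress and sugar enzymes. *yhb1* (SPAC869.02c), the nitric oxide dioxygenase gene, was the most counted, with 915, 1118 and 983 normalized counts in the mutant and 2493, 1880.4 and 1553 in wild type. Its log2 fold change of -0.98 ± 0.16 fell just short of 2-fold (edgeR adjusted p = 0.00249), so it was not called.

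The next 2 genes inwards from *yhb1* encode a urea transporter and a formamidase-like protein. The urea transporter gene SPAC869.03c had 4.55, 7.16 and 0.93 normalized counts in the mutant and 35.3, 52.6 and 67.3 in wild type (log2 fold change -3.61 ± 0.46, edgeR adjusted p = 0.000404). The formamidase-like gene SPAC869.04 had 1, 1 and 1 counts in the mutant and 63, 53 and 44 in wild type. Scaled for library size, the summed counts of SPAC869.04 were 59-fold lower in the mutant, with a 95% interval of 19.8 to 289 that covers counting error only (fitted log2 fold change -5.72, adjusted p = 8.68e-06). Low mutant counts were not limited to these genes: among the other members of the clone, *hry1* had 0, 2 and 1 counts in the mutant and 6, 1 and 1 in wild type, and SPAC869.09 had 7, 2 and 4 in the mutant and 4, 3 and 3 in wild type.

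*mel1* (SPAC869.07c), which encodes melibiase, an alpha-galactosidase, had 4.55, 7.16 and 2.79 normalized counts in the mutant and 22.8, 14.1 and 12.14 in wild type (log2 fold change -1.74 ± 0.46, edgeR adjusted p = 0.0297). *pcm2* (SPAC869.08), a protein-repair methyltransferase gene, had 2.73, 6.14 and 3.73 in the mutant and 13.7, 10.3 and 16.6 in wild type (log2 fold change -1.67 ± 0.46, adjusted p = 0.0348). At these low counts the side of the threshold changed with single libraries. Both genes passed the low-count filter through wild type alone, so their direction was set in advance and is no support for a fall. *mel1* did not pass without wild-type replicate 1 or 2 or mutant replicate 1 or 3 (adjusted p = 0.0584 to 0.133, log2 fold changes -1.84 to -1.44). *pcm2* did not pass without wild-type replicate 2 or any single mutant replicate (adjusted p = 0.0523 to 0.141, log2 fold changes -2.01 to -1.43). Neither passed in DESeq2 (adjusted p = 0.0781 for *mel1* and 0.123 for *pcm2*).

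The amidase gene SPAC869.01, on the outer side of *yhb1*, was among the 3 members of the clone that were not tested. It had 1, 3 and 2 counts in the mutant and 13, 18 and 3 in wild type.

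**Figure D3:**
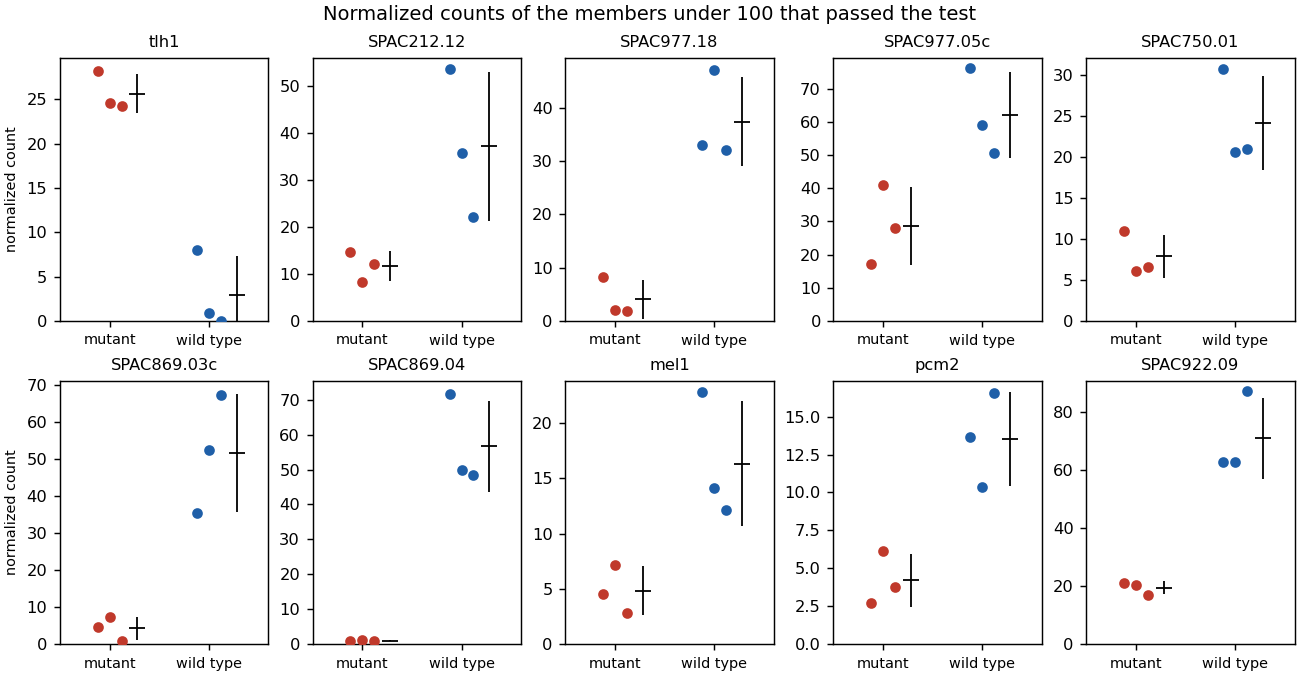
Normalized counts in each library (points, mutant left and wild type right, with mean and SD beside them) for the 10 members that passed the test while staying under a mean of 100 in both strains; each panel has its own linear axis from 0. *tlh1* is higher in the mutant, at 24.2 to 28.2 against 0 to 7.98, and the other 9 are lower in the mutant. *tlh1* passed the low-count filter through the mutant alone. Another 5, SPAC977.18, SPAC869.03c, SPAC869.04, *mel1* and *pcm2*, passed it through wild type alone. The directions of these genes were set by the filter.

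SPAC922, the innermost right clone, had all 6 members tested, all with log2 fold changes below 0, and 3 of them passed the adjusted p. Among all 5947 features tested, 2957 had a log2 fold change below 0 and 7.03% were lower at the adjusted p. With 6 genes, these counts are not read as a result about the clone. *atd2* (SPAC922.07c), an aldehyde dehydrogenase gene and the outermost of the clone, was called lower, with 421, 359 and 412 normalized counts in the mutant and 1340.2, 1164 and 816 in wild type (log2 fold change -1.48 ± 0.18, edgeR adjusted p = 0.000337). SPAC922.09, uncharacterized, had 20.9, 20.5 and 16.8 normalized counts in the mutant and 62.7, 62.9 and 87.2 in wild type (log2 fold change -1.86 ± 0.25, adjusted p = 0.000597), a clear gap at a level below the calling minimum. SPAC922.06, annotated as a 3-oxoacyl-[acyl-carrier-protein] reductase gene, had a smaller change, with 640.2, 644 and 672 normalized counts in the mutant and 876, 883 and 927 in wild type (log2 fold change -0.46 ± 0.12, adjusted p = 0.0288). Without wild-type replicate 2 or any single mutant replicate SPAC922.06 did not pass (adjusted p = 0.129 to 0.173), at log2 fold changes of -0.48 to -0.44.

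SPAC922.04, uncharacterized, was the most counted member at the right end, with 19872, 18651 and 19284 normalized counts in the mutant and 18385, 22945 and 26779 in wild type. The strains overlapped through wild-type replicate 1 and the gene did not pass (log2 fold change -0.24, edgeR adjusted p = 0.264), but without that library its adjusted p was 0.018 at a log2 fold change of -0.37.

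**Figure D4:**
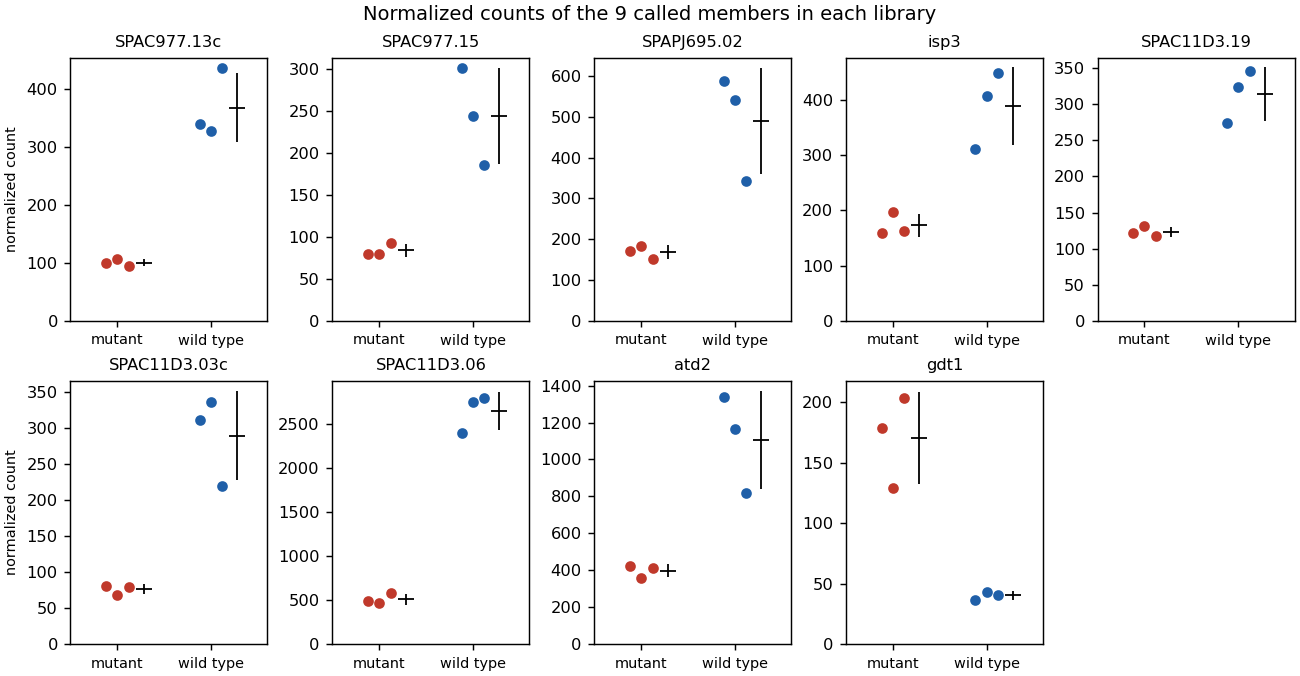
Normalized counts in each library (points, mutant left and wild type right, with mean and SD beside them) for the 9 called members; each panel has its own linear axis from 0. In each panel the strains are apart, with SPAC11D3.06 at 461 to 576 in the mutant and 2397 to 2791 in wild type, and *gdt1* as the gene that is higher in the mutant.

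The calls can also be split by whether a gene is duplicated. Of the 26 members with a near-identical copy, 6 were tested and 0 were called by edgeR or DESeq2 (5 had an unadjusted p under 0.05). Of the 68 without a copy, 56 were tested, and all 9 calls came from these. Among these 56, 14.3% were called lower and 1.79% higher, against 1.72% and 0.37% of all features tested. At the adjusted p, 37.5% were lower and 7.14% higher, against 7.03% and 5.33% of all features tested. The counts are limited by level, and the difference between the sets was not tested.

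Other end genes, measured in the same fit, stand beside the members as follows. Of the 12 genes of these clones that were left out by name, 11 were tested, with a median log2 fold change of -0.84. Of these 11, 4 were called lower (36.4%) and none higher. At the adjusted p, 54.5% were lower and 18.2% higher. The 58 coding genes within 100 kb of the chromosome II ends included 29 that were tested, with a median of -0.71. Of these 29, 7 were called lower (24.1%) and 1 higher (3.45%). At the adjusted p, 55.2% were lower and 10.3% higher. Among the tested members, 12.9% were called lower and 1.61% higher, and at the adjusted p 38.7% were lower and 8.06% higher. Over all features tested, 1.72% were called lower and 0.37% higher, and at the adjusted p 7.03% were lower and 5.33% higher. No difference between these sets and the members was tested.

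The genes for proteins known to act at chromosome ends were read from the same fit. Of 8 telomere protein genes (*taz1*, *rap1*, *poz1*, *tpz1*, *ccq1*, *pot1*, *rif1* and *trt1*), none was called by edgeR, 2 had an unadjusted p under 0.05 and *rif1* passed the adjusted p with a log2 fold change of 0.33 (adjusted p = 0.0435). The list had a median of 0.20. Of 14 heterochromatin genes, including the histone methyltransferase gene *clr4* and its partners, none was called, 2 had an unadjusted p under 0.05 and *set2*, for another histone methyltransferase, passed with a log2 fold change of 0.43 (adjusted p = 0.0471). Their median was 0.13. Over all 5947 features tested, 1.72% were called lower and 0.37% higher, 1628 had an unadjusted p under 0.05, and 5.33% were higher at the adjusted p. At the adjusted p, 12.5% of the telomere list and 7.14% of the heterochromatin list were higher. With lists of 8 and 14 genes, these counts are not read as a result about the lists. Whether these changes bear on the members was not tested.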

How the data were processed

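The data are whole-number read counts for 6988 features in 6 libraries. Per the study's methods, the authors mapped paired reads to ASM294v2 with HISAT2 2.1.0, counted them over exons with HTSeq 0.10.0 and deposited the raw counts; uniquely mapped reads are described, and no source used here gives whether HTSeq used strand. A deposited table of the authors' own DESeq2 comparison (fold changes and p-values) was not used, and 0 columns of per-sample values were left unused.

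Counts were fitted in edgeR 4.0.16 (R 4.3.3; TMM scaling, filterByExpr, glmQLFTest, no covariates), with Benjamini-Hochberg adjustment over 5947 features, and standard errors were taken from the F statistic. The fitting script was tested on simulated counts. P-values measure the spread between the 3 cultures of each strain. Alternatives used DESeq2 1.42.0, limma 3.58.1 (voom), other scalings and filters, and the omission of each library. IDs were matched to RefSeq ASM294v3 (6836 of 6988 paired, 152 not), which served for names, order, exon lengths, overlaps and copies (blastn 2.17.0), never for coordinates. No sequence is printed.

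Values per library are given for every member called, every member at an adjusted p of 0.05 or less, *tlh1*, and the most counted tested member of each clone. Members and lists were chosen with earlier results of these data known. The lists were the left-out clone genes, chromosome II end genes, telomere protein genes, heterochromatin genes and mating type markers.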

Additional observations from a re-analysis of the deposited data

How the results depend on the processing

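The count of members called lower, 8, was 8 or 9 with RLE or library-total scaling, other low-count filters, DESeq2 or limma-voom, and 8 to 9 with each library left out in turn. It was 3 when the fold change itself was tested against 2-fold (glmTreat), which kept SPAC11D3.06, SPAC11D3.03c and SPAC977.13c, and 17 without the minimum mean count of 100. The count called higher, 1, was 2 without that minimum, when *tlh1* joined *gdt1*, and 1 with each library left out. At the adjusted p alone, 24 members were lower and 5 higher. A minimum of 10 counts in every library left 51 members tested, 17 of them lower and 4 higher. Leaving out each library gave 16 to 32 lower and 3 to 7 higher, with 16 and 3 without mutant replicate 3 and 32 and 7 without wild-type replicate 3. Replicate numbers did not pair the cultures: the correlations of same-numbered deviations were -0.0334, -0.0269 and -0.0599. A replicate block gave 8 called lower, 1 called higher, 20 lower and 6 higher at the adjusted p. The 33 named genes gave 487 values over the alternatives in which each was tested. Several low-count genes, *tlh1* among them, were not tested with the minimum of 10 counts in every library. Of the 487 values, 419 kept their direction and side of the threshold, 64 kept the direction only, 4 newly passed and 0 reversed. For genes that passed the low-count filter through 1 strain alone, *tlh1* among them, the direction was set by the filter. Many of the 64 came from glmTreat, which tests against 2-fold and was also applied to genes that changed by less than that. The cause of the other shifts was not tested. Calls among members with few counts are limited by depth.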
